A study of Rattus norvegicus with 64 samples.

Results

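The 9 genes described here are expressed in microglia, the resident macrophages of the brain: P2rx4, P2rx7, P2ry12, Cx3cr1, Csf1r, Trem2, Tyrobp, Aif1 and Tmem119. P2rx4 was chosen by its measured difference between the ApoE genotypes in these same counts, and the other 8 as genes that microglia are known to use. All 9 were found by symbol among 32551 gene rows, and all 9 passed the filter on low counts in every comparison. RNA sequencing had been run on hippocampus and cortex of 32 rats, which gave 64 libraries in 8 groups of 8, each from 4 male and 4 female rats.

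In each region the groups were ApoE4 rats given doxorubicin, ApoE4 rats given phosphate-buffered saline (PBS), ApoE3 rats given doxorubicin and ApoE3 rats given PBS. ApoE3 and ApoE4 are human forms of apolipoprotein E, a lipid carrier. Doxorubicin is an anthracycline chemotherapy drug, given at 2 mg/kg a week for 4 weeks from an age of 5 weeks, with tissue taken 5 to 6 weeks after the last dose. The labels do not give a strain, a dissection date or a breeding record. Rat numbers run in blocks by genotype, sex and treatment, so a batch that follows those blocks and the genotype cannot be told apart.

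ATP released by stressed cells opens the cation channels P2X4 and P2X7, while its breakdown product ADP acts on the G protein-coupled receptor P2Y12. P2X4 and P2Y12 are known in rodent spinal cord microglia for their part in pain after nerve injury. CX3CR1 receives the neuronal ligand CX3CL1, CSF1R receives the survival factors CSF1 and IL-34, and TREM2 signals through the adaptor that Tyrobp encodes. Aif1 encodes the calcium-binding protein IBA1, and Tmem119 encodes a membrane protein used to tell microglia from other brain macrophages.

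The promoters of 3 members whose levels differed between genotypes are shown, because P2rx4 and P2rx7 are neighbours on chromosome 12 that were both lower in ApoE4 rats and Trem2, on chromosome 9, went the other way. Each runs from 250 bases before to 50 bases after the annotated start, 5′ to 3′ along the gene, from RefSeq on build GRCr8. Capitals mark GAGGAA on either strand, the core letters bound by the myeloid factor PU.1. They lie on the minus strand at chr12:39523040-39523339 for P2rx4, chr12:39594873-39595172 for P2rx7 and chr9:20151730-20152029 for Trem2.
P2rx4: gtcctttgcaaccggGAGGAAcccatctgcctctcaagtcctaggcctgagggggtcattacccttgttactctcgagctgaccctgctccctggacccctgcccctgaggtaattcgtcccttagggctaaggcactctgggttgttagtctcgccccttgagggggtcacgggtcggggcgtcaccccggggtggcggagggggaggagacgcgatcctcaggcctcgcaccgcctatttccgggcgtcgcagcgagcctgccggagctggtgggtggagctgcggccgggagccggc
P2rx7: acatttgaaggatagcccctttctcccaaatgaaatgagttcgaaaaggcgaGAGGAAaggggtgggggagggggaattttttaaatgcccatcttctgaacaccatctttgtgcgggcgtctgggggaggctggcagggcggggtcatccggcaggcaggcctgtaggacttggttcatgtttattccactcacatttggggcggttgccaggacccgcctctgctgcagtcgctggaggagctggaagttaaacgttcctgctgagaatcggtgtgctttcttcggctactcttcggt
Trem2: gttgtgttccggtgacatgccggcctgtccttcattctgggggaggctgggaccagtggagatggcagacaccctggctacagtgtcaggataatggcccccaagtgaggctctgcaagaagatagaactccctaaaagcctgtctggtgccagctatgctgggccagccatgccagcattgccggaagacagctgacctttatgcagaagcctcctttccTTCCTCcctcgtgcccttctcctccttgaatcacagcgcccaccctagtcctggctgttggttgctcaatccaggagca
Of 33469 promoters of the same length, 27.6% held this motif on at least 1 strand, and each of these 3 held 1 match. Among the members not shown, Csf1r held 2 matches and Cx3cr1 held 0. P2ry12, Tyrobp, Aif1 and Tmem119 had no promoter entry. A match is a run of letters and does not show binding.

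The libraries held 10.8M to 20.4M counts, spike-ins included, with a median of 14.5M, and no 2 libraries were identical. Of the microglial marker list, which holds none of the 9 genes, 30 of 32 were found in the tables, and their summed level ran from 610 to 907 CPM (counts scaled to a common library size by TMM) over the 64 libraries. No microglial list gene was at 0 throughout any group. Adjacent tissue varied far more. The summed choroid plexus list ran from 5.37 to 12600 CPM in hippocampus, and its part in the members' values was not tested. In these bulk samples, fewer microglia and less RNA per microglial cell cannot be told apart.

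P2rx4, the ATP-gated channel for which the set is named, was lower in ApoE4 rats in both regions and under both treatments, and its genotype groups never overlapped. Its counts lay between 178 and 761 per library. In PBS hippocampus the lowest, median and highest values were 13.9, 18.4 and 19.1 CPM in ApoE4 rats, against 29.6, 33.3 and 38.0 CPM in ApoE3 rats. In doxorubicin hippocampus they were 15.5, 18.3 and 19.7 CPM in ApoE4 rats, against 28.4, 31.7 and 33.9 CPM in ApoE3 rats. The highest hippocampal ApoE4 rat stayed well below the lowest ApoE3 rat.

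In PBS cortex P2rx4 had 18.4, 21.0 and 24.7 CPM in ApoE4 rats as lowest, median and highest, against 33.9, 40.2 and 45.2 CPM in ApoE3 rats. In doxorubicin cortex it had 16.0, 19.5 and 25.0 CPM in ApoE4 rats, against 36.5, 40.0 and 41.9 CPM in ApoE3 rats. The cortical groups were again separate. The log2 change of ApoE4 over ApoE3 was -0.93 ± 0.06 in PBS hippocampus, -0.82 ± 0.06 in doxorubicin hippocampus, -0.90 ± 0.07 in PBS cortex and -0.99 ± 0.07 in doxorubicin cortex (SE, 8 libraries a group). These values chose the gene and are given without a test. Groups that did not overlap were found for 1.04%, 1.10%, 2.17% and 2.17% of all tested genes in PBS hippocampus, doxorubicin hippocampus, PBS cortex and doxorubicin cortex.

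Both sexes showed the gap. In PBS hippocampus P2rx4 averaged 17.0 ± 2.31 CPM in ApoE4 females and 33.2 ± 2.47 CPM in ApoE3 females, and 18.2 ± 1.11 CPM in ApoE4 males and 33.5 ± 3.46 CPM in ApoE3 males (SD, n = 4 each). In doxorubicin cortex the ApoE4 average was 22.0 ± 2.44 CPM in females and 18.2 ± 1.64 CPM in males, against 39.4 ± 2.24 CPM in ApoE3 females and 39.9 ± 1.83 CPM in ApoE3 males (SD, n = 4 each). The ApoE4 means lay far below both ApoE3 means in each sex.

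**Figure D1:**
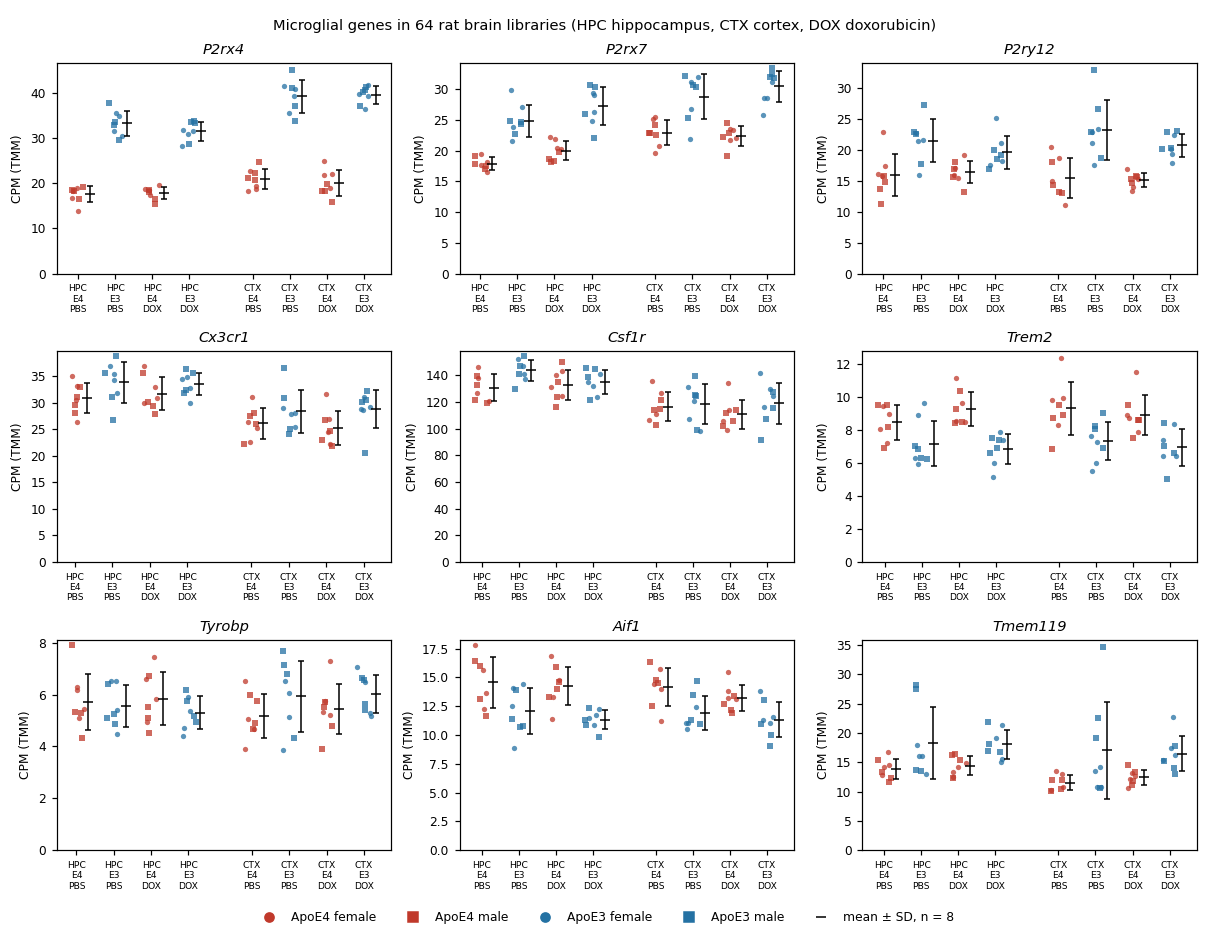
Level of each of the 9 genes in CPM on a linear axis from 0, per library, by region, treatment and genotype (circles female, squares male; bars mean ± SD, n = 8). For P2rx4 the ApoE4 points lie below every ApoE3 point of the same region and treatment; most other panels overlap.

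P2rx4 did not move alone, but no other member moved as far. P2rx4 was chosen for this difference and the others were not, so its place as the largest change follows in part from that choice. Of the other 8 members, 0 rose and 2 fell in ApoE4 rats in PBS hippocampus, where 3.76% of 14939 tested genes reached an adjusted p under 0.05, with 1.89% called higher and 1.87% called lower. In doxorubicin hippocampus 2 rose and 1 fell, against 3.63% of 14886 genes called, 1.92% higher and 1.71% lower. In PBS cortex 2 rose and 3 fell, but there 18.6% of 14824 genes were called, 10.2% higher and 8.42% lower. In doxorubicin cortex 1 rose and 2 fell, against 12.2% of 14876 genes called, 6.47% higher and 5.78% lower. Their median log2 change lay between -0.18 and -0.05 in the 4 comparisons, beside a median between -0.01 and 0 over all genes. Both treatments in a region were fitted together, and the adjusted p-values are from edgeR's quasi-likelihood test with Benjamini-Hochberg adjustment over all tested genes.

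P2rx7 encodes the other ATP-gated channel of the set, known for inflammasome activation in macrophages, and it passed as lower in all 4 comparisons. In PBS hippocampus it had 16.6, 17.7 and 19.5 CPM in ApoE4 rats as lowest, median and highest, against 21.7, 24.5 and 29.9 CPM in ApoE3 rats. These groups did not overlap. In PBS cortex the values were 19.7, 22.9 and 25.5 CPM in ApoE4 rats, against 21.9, 30.5 and 32.1 CPM in ApoE3 rats. These groups overlapped at the lowest ApoE3 rat.

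Under doxorubicin, P2rx7 had 18.1, 20.0 and 22.2 CPM in ApoE4 hippocampus, against 22.0, 27.6 and 30.8 CPM in ApoE3 hippocampus. In doxorubicin cortex it had 19.1, 22.6 and 24.6 CPM in ApoE4 rats, against 25.9, 31.5 and 33.4 CPM in ApoE3 rats. The cortical groups were separate, and the hippocampal ones overlapped narrowly. By edgeR the log2 changes of P2rx7 were -0.48 ± 0.07 (adjusted p = 9.61e-06) in PBS hippocampus and -0.45 ± 0.06 (adjusted p = 1.72e-05) in doxorubicin hippocampus. They were -0.33 ± 0.07 (adjusted p = 0.00077) in PBS cortex and -0.45 ± 0.07 (adjusted p = 1.15e-05) in doxorubicin cortex. In females alone the last 3 missed the threshold, at -0.37 (adjusted p = 0.0844), -0.30 (adjusted p = 0.118) and -0.35 (adjusted p = 0.0552).

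P2ry12, the ADP receptor that guides microglial processes, fell in 3 of the 4 comparisons. In PBS cortex it had 11.0, 14.6 and 20.4 CPM in ApoE4 rats, against 17.5, 22.9 and 32.9 CPM in ApoE3 rats. In doxorubicin cortex it had 13.2, 15.3 and 16.8 CPM in ApoE4 rats, against 17.8, 20.1 and 23.1 CPM in ApoE3 rats. The groups were separate under doxorubicin and overlapped under PBS.

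By edgeR the log2 change of P2ry12 was -0.59 ± 0.11 (adjusted p = 0.00013) in PBS cortex, -0.47 ± 0.11 (adjusted p = 0.00237) in doxorubicin cortex and -0.44 ± 0.11 (adjusted p = 0.0132) in PBS hippocampus. In doxorubicin hippocampus it was -0.26 ± 0.11 and missed the threshold (adjusted p = 0.213). In PBS hippocampus P2ry12 ran from 11.2 to 22.9 CPM in ApoE4 rats and from 15.8 to 27.2 CPM in ApoE3 rats, and the call there was lost in females alone, at -0.18 (adjusted p = 0.687), and with only the 16 PBS libraries fitted (adjusted p = 0.0725). Both cortical calls were lost in females alone, at -0.38 (adjusted p = 0.144) under PBS and -0.44 (adjusted p = 0.0786) under doxorubicin.

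Trem2, the lipid-sensing receptor of microglia that also binds apolipoprotein E, went in the opposite direction. In doxorubicin hippocampus it had 8.40, 8.89 and 11.1 CPM in ApoE4 rats, against 5.15, 7.14 and 7.84 CPM in ApoE3 rats. These groups did not overlap, and the log2 change was 0.43 ± 0.10 (adjusted p = 0.0109 by edgeR). In cortex it rose by 0.34 ± 0.11 in PBS rats (adjusted p = 0.0349) and 0.35 ± 0.11 in doxorubicin rats (adjusted p = 0.0363), with overlapping groups. In PBS hippocampus the change was 0.24 ± 0.10 and was not called (adjusted p = 0.232 by edgeR). The call in PBS cortex was lost in males alone, at 0.07 (adjusted p = 0.812), and with only the 16 PBS libraries fitted (adjusted p = 0.0545). Under doxorubicin neither sex alone passed in either region.

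Tyrobp, whose product carries the TREM2 signal, did not pass in any genotype comparison. Its log2 changes were 0.04 ± 0.12 in PBS hippocampus, 0.13 ± 0.12 in doxorubicin hippocampus, -0.20 ± 0.13 in PBS cortex and -0.15 ± 0.13 in doxorubicin cortex. With 3.86 to 7.91 CPM over all libraries it was thinly counted, and its 95% interval in PBS cortex reached from -0.46 to 0.06.

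Aif1, the IBA1 gene used to stain microglia, was called higher in doxorubicin hippocampus and PBS cortex. In doxorubicin hippocampus it had 11.4, 14.3 and 16.8 CPM in ApoE4 rats, against 9.84, 11.4 and 12.4 CPM in ApoE3 rats. The groups overlapped, and the log2 change was 0.33 ± 0.10 (adjusted p = 0.0495 by edgeR). In PBS hippocampus it was 0.27 ± 0.10 (adjusted p = 0.135 by edgeR) and in doxorubicin cortex 0.20 ± 0.09 (adjusted p = 0.123 by edgeR), and neither was called. In PBS cortex it was 0.25 ± 0.09 (adjusted p = 0.0394 by edgeR). Both calls were lost without the 2 libraries of that region that stood apart, at 0.29 (adjusted p = 0.139) and 0.22 (adjusted p = 0.0808). Neither held in males or in females alone, or without the filter on low counts (adjusted p = 0.072 and 0.0603).

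Tmem119 fell in PBS cortex, by edgeR at -0.55 ± 0.17 (adjusted p = 0.0162), and that value rested on a few ApoE3 males. There it had 10.1, 11.4 and 13.6 CPM in ApoE4 rats as lowest, median and highest, against 10.7, 13.9 and 34.6 CPM in ApoE3 rats. The ApoE3 rats 43 and 45 had 22.5 and 34.6 CPM in cortex, and the same animals had 28.1 and 27.5 CPM in hippocampus, the highest 2 values of that region. Without them, a setting chosen after the data were seen, the change in PBS cortex was -0.20 (adjusted p = 0.277 by edgeR), and in females alone it was -0.05 (adjusted p = 0.875 by edgeR). In the other 3 comparisons it lay between -0.42 and -0.33 and was not called. With only the 16 doxorubicin libraries fitted it passed in cortex at -0.41 (adjusted p = 0.0053) and in hippocampus at -0.33 (adjusted p = 0.0494), and in females alone it passed in doxorubicin cortex at -0.59 (adjusted p = 0.0123).

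Cx3cr1 and Csf1r, the fractalkine and CSF1 receptors, were not called for genotype anywhere. Cx3cr1 changed by -0.21 to -0.08 on the log2 scale and Csf1r by -0.14 to -0.02. In PBS cortex Csf1r had 103, 114 and 136 CPM in ApoE4 rats, against 98.6, 123 and 140 CPM in ApoE3 rats. The groups overlapped almost fully.

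**Figure D2:**
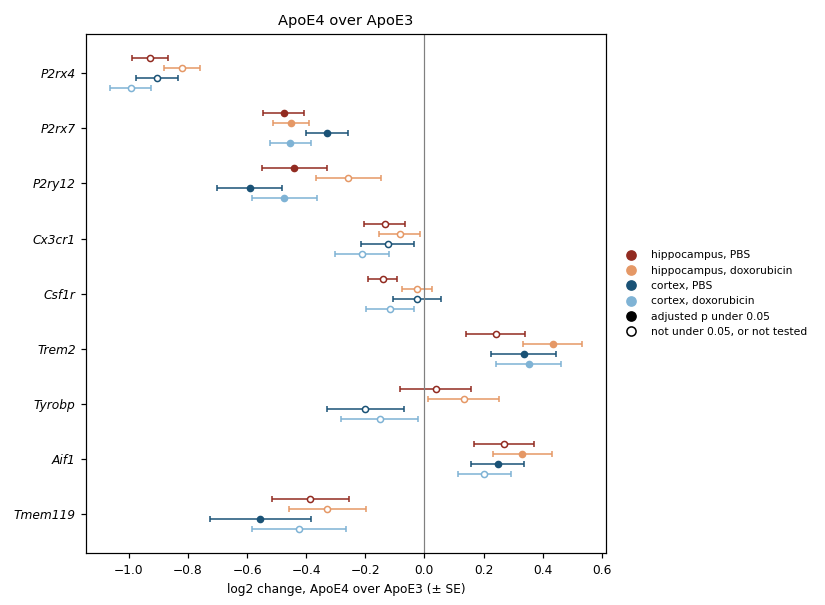
Log2 change of ApoE4 over ApoE3 with its SE for each gene in the 4 comparisons of region and treatment (8 libraries a group; filled points have an adjusted p under 0.05). P2rx4 lies furthest left, between -0.99 and -0.82 and untested; P2rx7 is filled in all 4, Trem2 and Aif1 lie right of 0, and Cx3cr1, Csf1r and Tyrobp are open throughout.

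The wider microglial list of 30 tested genes held more falls than rises in ApoE4 cortex. In PBS cortex 8 fell and 2 rose, against 8.42% lower and 10.2% higher over all genes, with a list median log2 change of -0.09. In doxorubicin cortex 11 fell and 1 rose, against 5.78% and 6.47%, with a median of -0.23. In hippocampus 5 fell and 0 rose under PBS, against 1.87% lower and 1.89% higher over all genes, and 3 fell and 1 rose under doxorubicin, against 1.71% and 1.92%. By edgeR C1qa, a complement gene, changed by -0.45 ± 0.08 (adjusted p = 0.000186) in doxorubicin cortex. Slc2a5, a fructose transporter gene, fell in all 4 comparisons, by 0.46 to 0.67 on the log2 scale.

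Fcgr3a, an Fc receptor gene, rose in 3 comparisons, by 0.86 ± 0.20 in PBS cortex (adjusted p = 0.00267 by edgeR). The level of Fcgr3a was low, with medians there of 2.31 CPM in ApoE4 and 1.26 CPM in ApoE3 rats. Close copies of Fc receptor genes could share its reads, which was not tested. The summed list had a median of 683 CPM in ApoE4 and 767 CPM in ApoE3 rats in PBS cortex, and of 654 CPM in ApoE4 and 760 CPM in ApoE3 rats in doxorubicin cortex. The ranges of ApoE4 and ApoE3 overlapped in both. Of 15 tested reactive microglial genes, 2 rose in PBS cortex, the lysosomal glycoprotein gene Gpnmb at 0.42 ± 0.10 (adjusted p = 0.00237 by edgeR) and the receptor kinase gene Axl, a share near the 10.2% of all genes called higher there. In doxorubicin hippocampus 1 of 15 rose, the fatty acid-binding protein gene Fabp5, against 1.92% of all genes, and 0 passed in PBS hippocampus or doxorubicin cortex.

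Other tissue moved with genotype in PBS cortex. Of 8 tested perivascular macrophage genes 6 rose there, among them the mannose receptor gene Mrc1 at 1.45 ± 0.19 (adjusted p = 6.04e-07 by edgeR), and of 8 meningeal fibroblast genes 6 rose. Of 6 endothelial genes 5 rose and of 8 astrocyte genes 3 rose, all beside 10.2% of all genes called higher. Of 8 neuronal genes 3 fell and 1 rose there, beside 8.42% of all genes called lower. In doxorubicin cortex 2 of 7 perivascular macrophage genes rose, against 6.47% of all genes, and 0 of 8 meningeal fibroblast genes. The summed macrophage list ran from 28.8 to 47.5 CPM in ApoE4 and from 14.1 to 26.3 CPM in ApoE3 rats in PBS cortex. Under doxorubicin the cortical ranges overlapped, at 26.9 to 53.1 CPM in ApoE4 and 17 to 40.4 CPM in ApoE3 rats. No macrophage marker was at 0 throughout any group. In PBS hippocampus 0 of 8 perivascular macrophage and 0 of 8 meningeal fibroblast genes rose, and 3 of 8 oligodendrocyte genes did, against 1.89% of all genes. The part of other cell types in the members' values was not tested.

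With both directions counted, the rest of the ATP and adenosine pathway was called no more often than genes in general, and the few calls were falls. Of 23 tested purinergic genes 0 passed in hippocampus under PBS or doxorubicin, against 3.76% and 3.63% of all genes. In PBS cortex 3 of 21 fell and 0 rose, against 18.6% of all genes called in either direction and 8.42% called lower. The 3 were the receptor gene P2ry4, the ecto-5′-nucleotidase gene Nt5e and the nucleoside transporter gene Slc29a1 at -0.35 ± 0.07 (adjusted p = 0.000919 by edgeR). In doxorubicin cortex 2 of 22 fell and 0 rose, against 12.2% of all genes called in either direction and 5.78% called lower. The 2 were the ADP receptor gene P2ry13, which is also in the wider microglial list, and the adenosine deaminase gene Ada. Counts of 3 and 2 are too few to be set apart from the shares called lower, and the difference was not tested. Among 10 genes known to control or follow P2X4, 0 passed in hippocampus, and in PBS cortex Itgb1 and Slc12a5, the neuronal chloride transporter KCC2, rose by 0.34 ± 0.06 and 0.15 ± 0.05. In doxorubicin cortex Slc12a5 alone of the 10 rose, at 0.17 ± 0.05 (adjusted p = 0.0347 by edgeR). Of all genes 18.6% were called in PBS cortex, 10.2% higher, and 12.2% in doxorubicin cortex, 6.47% higher. With 10 genes, counts of 2 and 1 are too few to be set apart from either share, and the difference was not tested.

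P2rx4 and P2rx7 lie side by side on chromosome 12, with 0 annotated protein-coding genes between them, and Tmem119 lies 130 genes away on the same chromosome. Of the 20 nearest protein-coding neighbours of P2rx4, 10 on each side, 3 were called in PBS hippocampus, 3 in doxorubicin hippocampus, 11 in PBS cortex and 4 in doxorubicin cortex. These are 15%, 15%, 55% and 20% of the 20, beside 3.76%, 3.63%, 18.6% and 12.2% of all tested genes. The count in PBS cortex was 4 in males alone and 2 in females alone. P2rx7 itself is 1 of the 20. Besides it, Orai1, a calcium channel gene, rose in all 4, and Anapc5, which encodes a subunit of the anaphase-promoting complex, fell in all 4. Orai1 averaged 12.0 ± 2.31 CPM in ApoE4 and 9.22 ± 1.13 CPM in ApoE3 rats in PBS hippocampus, a log2 change of 0.39 ± 0.10 (adjusted p = 0.028 by edgeR).

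Camkk2, the protein kinase gene on the other side of P2rx4, was not called in any comparison, at -0.13 to 0.05. Anapc5, the next gene beyond it, changed by -0.19 to -0.14, far less than P2rx4. Over the whole of chromosome 12 the share of genes called was 3.42% in PBS hippocampus, 3.23% in doxorubicin hippocampus, 19.5% in PBS cortex and 12.4% in doxorubicin cortex, near those of all genes. Gene order was taken from GRCr8, while the build used for counting is not given in the sources used here. Without a stated strand, reads from overlapping genes cannot be told apart.

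**Figure D3:**
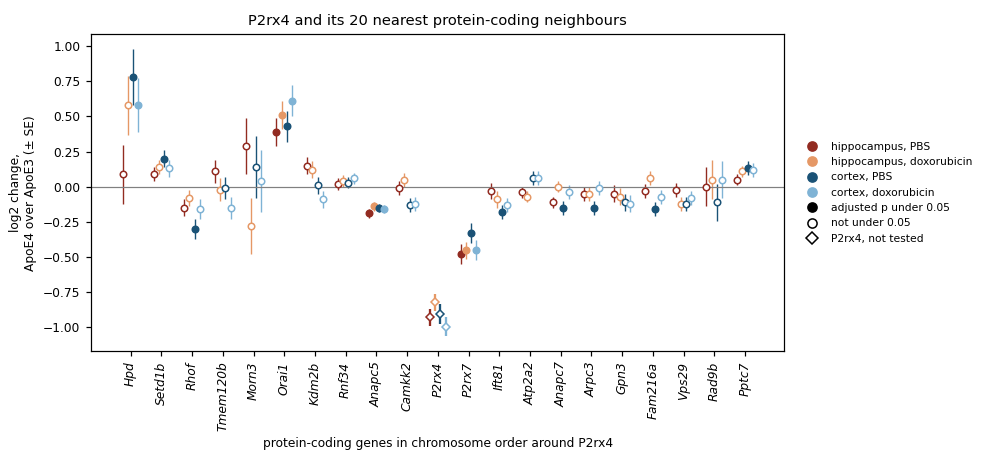
Log2 change of ApoE4 over ApoE3 with its SE for P2rx4 (diamonds, untested) and its 20 nearest protein-coding neighbours, in chromosome order rather than distance, in 4 comparisons; filled points have an adjusted p under 0.05. P2rx4 lies lowest, P2rx7 beside it is next, Camkk2 on the other side is near 0, and Orai1 lies above 0 in all 4.

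Genes whose level followed P2rx4 most closely were spread over other chromosomes. Over the 32 hippocampal libraries the highest Pearson r of log2 CPM belonged to Clpp (0.92), Bcas1 (0.92), Ube2v1 (0.91), Ghdc (0.90) and Rhbdl2 (0.89), among 13047 genes. Over the 32 cortical libraries it belonged to Igfbp6 (0.96), Clpp (0.95), Ube2v1 (0.94), Syt5 (0.92) and Ghdc (0.92), among 13002 genes. These correlations share the genotype split and are a description. Clpp, a mitochondrial protease gene on chromosome 9, had a median of 20.6 CPM in ApoE4 and 39.9 CPM in ApoE3 rats in PBS cortex. P2rx7 ranked 37 in hippocampus at r = 0.81 and 115 in cortex at r = 0.77.

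Within groups no correlation of P2rx4 with another member passed, and none of P2rx7 or of Trem2 passed by either measure. Among pairs without P2rx4, 28 in each region, 7 passed by Pearson's r and 6 by Spearman's rho. Log2 CPM was compared after the mean of each genotype, treatment and sex was taken away, over 32 rats a region and 72 relations. P2rx4 had r between -0.38 and 0.19 with the other 8 in hippocampus, and between -0.48 and 0.07 in cortex. Of these 16 relations 0 passed, and the lowest, with Tmem119 in cortex, had r = -0.48 (rho = -0.32; permutation p = 0.0345, adjusted p = 0.158). Leaving out the 2 rats farthest from the median of P2rx4 gave r = -0.36 for it.

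Among the other 28 pairs, 28 of 28 were positive in cortex with a median r of 0.34, and 19 of 28 in hippocampus with a median of 0.21. In cortex 4 passed by r. Cx3cr1 with Csf1r had r = 0.77 there (rho = 0.73; permutation p = 1e-05, the smallest p these permutations can give; adjusted p = 0.00072; r = 0.72 without the 2 rats farthest in the first gene), and P2ry12 with Aif1 had r = 0.64 (rho = 0.55; permutation p = 0.00173; adjusted p = 0.0209; r = 0.51 without the 2 rats farthest in the first gene). P2ry12 also passed with Cx3cr1 at r = 0.61 (rho = 0.59; permutation p = 0.00147; adjusted p = 0.0209; r = 0.52 without the 2 rats farthest in the first gene) and with Csf1r at r = 0.62 (rho = 0.59; permutation p = 0.00174; adjusted p = 0.0209; r = 0.56 without the 2 rats farthest in the first gene).

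In hippocampus 3 pairs passed by r, all with Csf1r. Csf1r with Tyrobp had r = 0.66 (rho = 0.69; permutation p = 0.00023; adjusted p = 0.00828; r = 0.67 without the 2 rats farthest in the first gene) and Cx3cr1 with Csf1r had r = 0.62 (rho = 0.65; permutation p = 0.00136; adjusted p = 0.0209; r = 0.60 without the 2 rats farthest in the first gene). Csf1r with Aif1 had r = 0.51 (rho = 0.53; permutation p = 0.00411; adjusted p = 0.0423; r = 0.52 without the 2 rats farthest in the first gene). By rho, P2ry12 with Aif1 in cortex (permutation, adjusted p = 0.0642) and Csf1r with Aif1 in hippocampus (permutation, adjusted p = 0.0574) missed the threshold, and Csf1r with Tmem119 in cortex passed it (rho = 0.60; permutation, adjusted p = 0.0431) but not by r (r = 0.53; adjusted p = 0.0763).

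**Figure D4:**
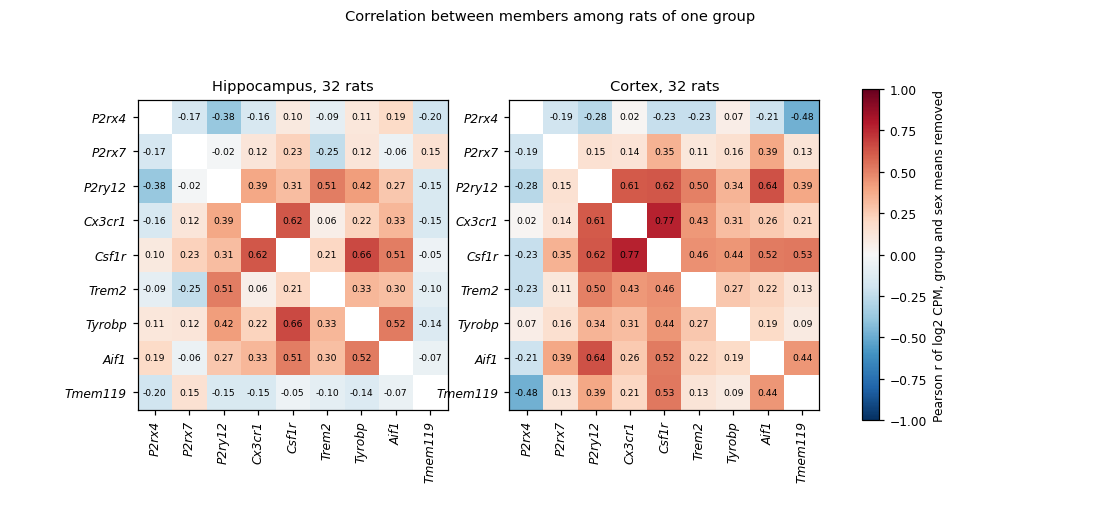
Pearson r between the 9 genes over 32 rats, in hippocampus and in cortex, of log2 CPM with the mean of each genotype, treatment and sex removed (colour from -1 to 1, values printed). The P2rx4 row is near 0 or below in both, while cells among P2ry12, Cx3cr1 and Csf1r in cortex reach 0.61 to 0.77.

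The same rat's hippocampus and cortex were also set side by side, a comparison chosen after the data were seen, with 9 relations. P2rx4 had r = 0.09 between the regions over 32 rats (rho = 0.02; permutation p = 0.683, adjusted p = 0.761). Cx3cr1 had r = 0.53 (rho = 0.51; permutation p = 0.0144, adjusted p = 0.13) and r = 0.41 without the 2 farthest rats. Tmem119 had r = 0.60 (rho = 0.43; permutation p = 0.0427, adjusted p = 0.18) and r = 0.50 without its 2 farthest rats. None of the 9 passed after adjustment.

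Doxorubicin, the question of the study, left no member past the threshold. Of the 9 members 0 passed in ApoE4 hippocampus, ApoE3 hippocampus, ApoE4 cortex or ApoE3 cortex, where 0% of 14872, 14898, 14837 and 14770 tested genes were called. At an unadjusted p under 0.05 there was 1 member in ApoE4 hippocampus and 0 in each of the others, and with DESeq2 0 of 9 members were called in each. Over all tested genes the number at an unadjusted p under 0.05 was 1098 to 1529, and by DESeq2 between 1 and 145 genes were called.

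P2rx4 had a median of 18.3 CPM in doxorubicin and 18.4 CPM in PBS rats in ApoE4 hippocampus, and of 31.7 CPM in doxorubicin and 33.3 CPM in PBS rats in ApoE3 hippocampus. In cortex the medians were 19.5 CPM in doxorubicin and 21.0 CPM in PBS rats with ApoE4, and 40.0 CPM in doxorubicin and 40.2 CPM in PBS rats with ApoE3. The groups overlapped in all 4 cases. The log2 change was 0.02 ± 0.07, -0.08 ± 0.06, -0.07 ± 0.08 and 0.01 ± 0.06 in the same order, and the 95% intervals together ran from -0.23 to 0.16.

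P2rx7 was the member with the smallest p, in ApoE4 hippocampus. It had 18.1, 20.0 and 22.2 CPM in doxorubicin rats as lowest, median and highest, against 16.6, 17.7 and 19.5 CPM in PBS rats. The groups overlapped, and the log2 change was 0.16 ± 0.05 (adjusted p = 0.609 by edgeR, and 0.00851 before adjustment). The authors' deposited table gives 0.16 for this gene and comparison, with an adjusted p of 0.483.

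The other members lay between -0.16 and 0.13 on the log2 scale over the 4 comparisons. Tmem119 in ApoE3 cortex had the widest 95% interval, from -0.39 to 0.36, so a moderate change of that gene was not detectable there. The test of whether the drug effect differed by genotype gave 0 of 9 members in hippocampus and 0 of 9 in cortex, where 0% of 15415 and 15314 genes were called. P2rx4 had a difference of 0.10 ± 0.09 in hippocampus (adjusted p = 0.793 by edgeR) and -0.09 ± 0.10 in cortex (adjusted p = 0.918 by edgeR).

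**Figure D5:**
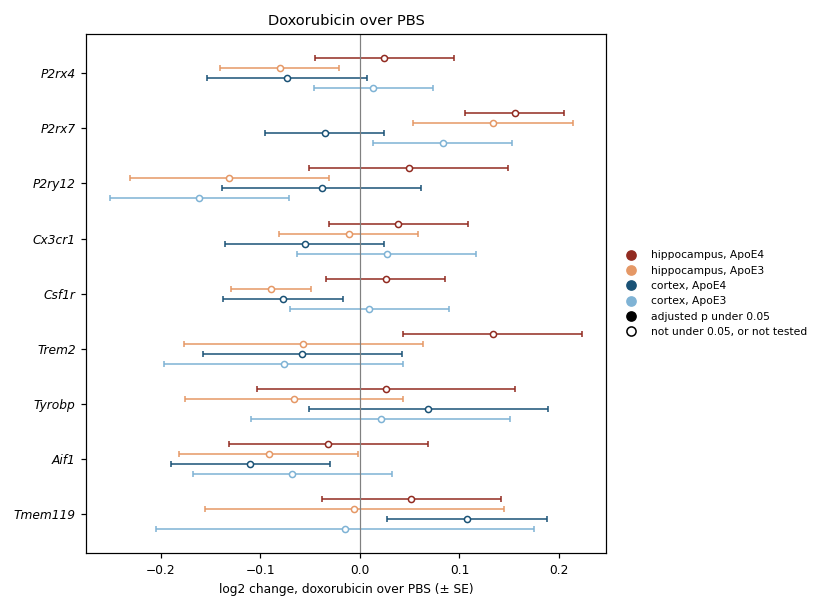
Log2 change of doxorubicin over PBS with its SE for each gene within the 4 combinations of region and genotype (8 libraries a group; no point has an adjusted p under 0.05). All values lie between -0.16 and 0.16, and P2rx7 in ApoE4 hippocampus is furthest right.

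No member passed for sex. Between female and male rats 0 of 9 passed in hippocampus, where 0.114% of 14921 genes were called, and 0 of 9 in cortex, where 0.739% of 14884 genes were called. P2rx4 changed by -0.02 ± 0.04 in hippocampus and 0.02 ± 0.05 in cortex for female over male. At an unadjusted p under 0.05 there were 0 members in either region, and DESeq2 called 0 of 9 in both.

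Both ATP channels were lower in hippocampus than in cortex, and both genotypes showed this. In ApoE4 PBS rats P2rx4 averaged 17.6 ± 1.79 CPM in hippocampus and 21.0 ± 2.15 CPM in cortex (SD, n = 8 each), a log2 change of -0.29 ± 0.08 (adjusted p = 0.00238 by edgeR). In ApoE3 PBS rats it averaged 33.4 ± 2.79 CPM in hippocampus and 39.4 ± 3.66 CPM in cortex (SD, n = 8 each), a log2 change of -0.25 ± 0.06 (adjusted p = 0.000277 by edgeR). P2rx7 changed by -0.39 ± 0.06 in ApoE4 rats (adjusted p = 9.31e-07 by edgeR) and by -0.23 ± 0.08 in ApoE3 rats (adjusted p = 0.0144 by edgeR). In females alone P2rx4 missed the threshold in ApoE4 rats, at -0.25 (adjusted p = 0.0651), and P2rx7 in ApoE3 rats, at -0.14 (adjusted p = 0.351).

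Cx3cr1 went the other way, at 0.21 ± 0.08 in ApoE4 rats (adjusted p = 0.0198 by edgeR) and 0.24 ± 0.08 in ApoE3 rats (adjusted p = 0.016 by edgeR). In all, 2 members rose and 2 fell in each genotype, which is no more than the background. Over all genes 51.2% of 14834 were called in ApoE4 rats, 25.1% higher and 26.1% lower, and 51.3% of 14980 in ApoE3 rats, 26.1% higher and 25.3% lower. Csf1r was called in ApoE3 rats at 0.26 ± 0.07 (adjusted p = 0.00203 by edgeR). In ApoE4 rats it was 0.14 ± 0.06 (adjusted p = 0.061 by edgeR) and passed with the rat as a block (adjusted p = 0.026) and with DESeq2 (adjusted p = 0.0338). Tmem119 passed in ApoE4 rats alone, at 0.24 ± 0.09 (adjusted p = 0.0185 by edgeR), and the difference between the genotypes was not tested.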

How the data were processed

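RNA was measured in hippocampus and cortex of 32 rats. Per the submitters' processing notes, reads were aligned with STAR 2.5.2b and the authors compared groups with DESeq2; the read counter, genome build and strandedness are not given in the sources used here. The deposited tables hold raw counts per gene. The authors' comparison tables also hold a signal (counts divided by 1 size factor per library), log2 fold changes and p-values, before and after adjustment, as deposited. Counts per library ran from 10.8M to 20.4M, which, with 8 libraries a group, limits precision. Spike-in and donor rows, 1.58% of counts on average, were left out.

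Counts were fitted in R 4.3.3 with edgeR 4.0.16 (filterByExpr, TMM, quasi-likelihood F-test, Benjamini-Hochberg, threshold 0.05, sex as covariate); DESeq2 1.42.0 was an alternative. The SE is the absolute log2 change over the square root of F, and 95% intervals use it. Log2 CPM carries a prior count of 1. The fits were tested on simulated data. Doxorubicin comparisons used 16 libraries, the others 32. Hippocampus and cortex share the rat: deviations from the group means correlated within a rat with a median r of 0.22 (-0.08 to 0.37) over 14317 genes, against -0.04 between other rats of the group. Whether rats were littermates is not stated, so p-values measure the spread between these animals. Named genes are the 9 members, 20 neighbours, the closest 5 by correlation and members of written lists that passed. Members and lists were chosen with earlier results of these data known. Of the blood leukocyte list only 2 of 14 genes matched a row, and it is not used. Libraries that stand apart are those of rats 10 and 31 in hippocampus and 58 and 72 in cortex. Alternatives are given in the closing section.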

Additional observations from a re-analysis of the deposited data

Results flagged for a closer look

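In 2 of 72 combinations of gene and group, 1 of the 8 rats lay further from the rest than Dixon's test at the 95% level allows; chance gives about 1 in 20. In doxorubicin-treated ApoE4 cortex, female rat 31 had 134 CPM of Csf1r, against 99.0 to 114 CPM in the other rats of the group. In doxorubicin-treated ApoE3 cortex, male rat 51 had 20.5 CPM of Cx3cr1, against 28.7 to 32.2 CPM in the other rats of the group. Neither gene was called for genotype or doxorubicin in cortex.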

How the results depend on the processing

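A member's log2 change was repeated under another setting 254 times. These repeats cover results called in any setting, P2rx7 under doxorubicin in ApoE4 hippocampus, and the untested P2rx4 genotype changes that chose the gene. Of the 254, 211 were the same, 33 lost the call, 9 gained one and 1 moved by more than the spread. Same means an unchanged direction and side of the threshold or, for P2rx4 between genotypes, a value within the spread. None of these 254 reversed; among 796 repeats of member values that had not passed, 68 changed sign. DESeq2, DESeq2's size factors (RLE) and the fit without sex kept the number of members called within 1.5 times the count above. The number of members called for genotype in PBS hippocampus was 1 in females alone and 1 when only the 16 PBS libraries were fitted. In doxorubicin hippocampus it was 1 in males alone and 0 in females alone. In PBS cortex it was 3 in males alone, 1 in females alone, 3 with the 16 PBS libraries and 3 without rats 43 and 45, a setting chosen after the data were seen. In doxorubicin cortex it was 1 in females alone. For hippocampus against cortex it was 2 in ApoE3 males, 2 in ApoE4 males and 1 in ApoE4 females. Each single-sex fit has fewer samples. P2rx4 in doxorubicin cortex was -1.14 in males alone. With the rat as a replicate block, Csf1r passed in ApoE4 rats (adjusted p = 0.026), and no other member's call changed. The number of all genes called ran from 139 to 683 in PBS hippocampus, 118 to 691 in doxorubicin hippocampus, 660 to 2931 in PBS cortex and 768 to 2101 in doxorubicin cortex for genotype, and from 0 to 145 for doxorubicin. Neighbours of P2rx4 called in PBS hippocampus were 1 in females alone, and in doxorubicin hippocampus 0 in females alone and 1 in males alone. The median correlation of P2rx4 with the other 8 in hippocampus was 0.05 in ApoE3 rats, -0.22 in ApoE4 rats and -0.12 in all. Depth limits Tyrobp and Trem2 most, at 45 to 187 counts per library.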
